A study of Mus musculus with 8 samples.

Results

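The comparison described here set kidney tubular epithelial cells from mice fed a high protein diet (HP, 60% protein) against the same cells from mice fed a normal protein diet (NP, 18% protein), to ask what an excess of dietary protein does to gene expression within 1 week. It used 6 of the 8 libraries of the series, 3 HP and 3 NP, and compared 13566 of the 53700 genes in the expression table, those with at least 1 FPKM in at least 2 of the 8 libraries. FPKM counts fragments per kilobase of transcript, scaled to library size, so it is a level adjusted for transcript length and depth. The other 2 libraries came from mice on a low protein diet (LP, 6% protein), which entered the estimate of the spread and are given only as side values. Values given for HP and NP without a library name are in the order F1, F2 and M for HP and F2, KO7 and M for NP. All mice, HP, NP and LP alike, were Pkd1KO: Pkd1-floxed animals carrying the tamoxifen-inducible CAGG-CreER, which acts throughout the body and not only in the tubule. By the study's methods they received tamoxifen at 5 to 6 weeks of age, began the diet 2 weeks later and ate 2.8 g of food per day, and each library pooled 2 to 3 mice. No library of a mouse with intact Pkd1 was analysed here, so every difference below is between diets on a Pkd1KO background.

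Protein was not the only thing that differed between the diets. By the study's composition table the HP food also held less sucrose, no corn starch, more maltodextrin, more calcium carbonate and less dibasic calcium phosphate than the NP food, so protein and these ingredients cannot be told apart in this comparison. The cells were sorted after staining for macrophages (CD11b and F4/80) and for proximal tubule and collecting duct (the lectins LTL and DBA). The time of day at which kidneys were taken is not given in the sources used here.

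Tubular epithelial cells reclaim filtered glucose, amino acids and salt, and the proximal tubule among them makes new glucose and takes up glutamine, from which it forms the ammonia that carries acid into the urine. Amino acid breakdown yields urea and acid, and the kidney is a principal organ that handles both. Tubule cells also run a circadian clock, in which CLOCK and BMAL1 switch on genes through E-boxes, the PER, CRY and REV-ERB proteins and CIART switch them off again, and the output factors DBP, TEF and HLF act on D-boxes; feeding is a known time cue for the clocks of peripheral organs. Loss of Pkd1, which encodes polycystin-1, makes tubules dilate into cysts.

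Estimated from the step between low FPKM values, library depth was 28900000 to 34700000 fragments in HP libraries and 26600000 to 31000000 in NP libraries. Over the genes compared, libraries of the same diet correlated at 0.961 to 0.983 and libraries of different diets at 0.955 to 0.979. Proximal tubule markers were abundant throughout, and Pkd1 was at 2.84, 2.65 and 2.11 FPKM on HP, against 1.96, 2.49 and 4.11 FPKM on NP, a check that says nothing of the deletion itself, since FPKM is taken over the whole gene. The sample titles carry the labels F1, F2 and M for HP, F2, KO7 and M for NP, and F2 and M for LP. Xist, the RNA that coats the silenced X chromosome, was at 45.3, 23.4 and 1.09 FPKM in HP F1, F2 and M, against 33.01, 0.78 and 0.81 FPKM in NP F2, KO7 and M. The Y-linked Eif2s3y was at 0.56, 1.45 and 22.8 FPKM in HP F1, F2 and M, against 0.67, 13.7 and 30.5 FPKM in NP F2, KO7 and M, so KO7 went with the libraries labelled M. The HP group thus held 1 library and the NP group 2 libraries with Y-linked transcripts and low Xist, and sex is only partly balanced between the diets. LP M held both kinds of transcript, with Xist at 16.3 FPKM and Eif2s3y at 23.3 FPKM. Libraries with the same label deviated together from their diet means, with correlations of 0.145 to 0.346 over 6 pairs, and pairs with different labels correlated at -0.381 to 0.252, the highest being HP F1 with NP F2. A fit with a block for the labels F2 and M was also run. That fit leaves out HP F1 and NP KO7, and its block divides libraries just as the sex letter does. The label block and the sex letter are thus not separate adjustments.

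Few genes passed the adjusted threshold between the diets, with 3 pooled libraries in each group. By limma on log2(FPKM + 1), with Benjamini-Hochberg adjustment over the 13566 genes, 3 genes passed an adjusted p of 0.05 between HP and NP. Dbp (ENSMUSG00000059824.13) and Ciart (ENSMUSG00000038550.11), which belong to the circadian clock, fell on HP. Chga (ENSMUSG00000021194.7), which encodes the secretory granule protein chromogranin A, rose. These are 0.0147% of genes tested for the lower and 0.00737% for the higher direction. An unadjusted p under 0.05 was reached by 402 higher genes (2.96%) and 803 lower genes (5.92%), counts with no correction for the number of genes tested. The share of higher genes among them was 33.4%. It was 26.9% after scaling all libraries to the same sum, 53.0% with median-of-ratios scaling, 51.4% with quantile normalization and 44.8% after rescaling without haemoglobin and mitochondrial genes. The lean towards lower genes thus depends on how libraries are scaled. Of all genes 5551 (40.9%) lay above 0 and 8013 below, and 4930 to 6883 lay above 0 under those scalings. The median log2 difference of all genes was -0.05, and -0.08 to 0.01 under those scalings. Counts for the gene lists below are to be read beside these shares of all genes.

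The adjusted counts were sensitive to single libraries. In the fit with the label block, 2 genes passed as higher and 6 as lower, and 569 and 2196 did so at an unadjusted p under 0.05. Without HP M, 26 genes passed as higher and 12 as lower. Without HP F1, 1 gene passed as lower and 0 as higher by limma, with 206 higher at an unadjusted p under 0.05. Without HP F2 the passing genes were 3 higher and 2 lower, and the unadjusted counts 233 and 359. No gene passed as higher without NP F2 (334 at an unadjusted p under 0.05) or without NP M (388). Leaving out LP F2 gave 2 higher genes. With sex as lettered in the titles as a covariate, and without KO7, whose title has no letter, 15 genes passed as higher and 29 as lower. In all, 42 genes are named below by rules of size, adjusted p and the study's follow-up, 20 higher and 22 lower on HP.

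**Figure D1:**
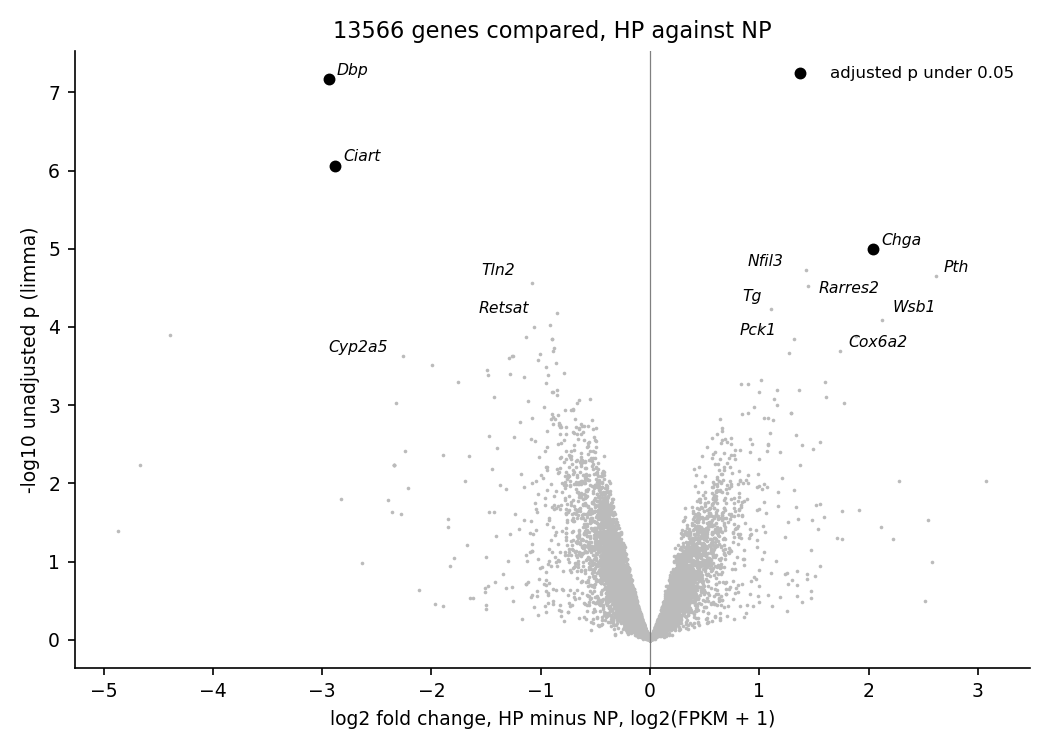
Each point is 1 of the 13566 genes compared, with its log2 fold change (HP minus NP, on log2(FPKM + 1)) on the horizontal axis and minus log10 of the unadjusted limma p on the vertical axis. The 3 black points, Dbp and Ciart to the left and Chga to the right, passed an adjusted p of 0.05, and the other names mark genes that did not.

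The clearest pattern lay in the clock. Dbp, the D-box activator that serves as a main clock output, was at 23.9, 25.3 and 29.4 FPKM in HP F1, F2 and M, against 187, 269 and 176 FPKM in NP F2, KO7 and M. The HP values sat within a narrow band far below every NP value. Its log2 fold change was -2.94 ± 0.19 (SE; adjusted p = 0.000909, limma), and it passed in every one of the 22 alternative settings. Dbp was at 71.4 and 91.4 FPKM in LP F2 and M, between the groups compared. Ciart, which encodes a repressor of CLOCK and BMAL1, was at 1.89, 1.33 and 2.42 FPKM in HP F1, F2 and M, against 16.3, 19.2 and 25.5 FPKM in NP F2, KO7 and M. The groups again did not overlap. It fell by 2.88 on the log2 scale (SE 0.25, adjusted p = 0.00586), and the adjusted p was 0.0989 without HP F1. The LP values of Ciart were 2.84 and 5.38 FPKM in LP F2 and M.

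All 9 clock repressors that could be tested lay lower on HP, with no overlap between HP and NP in any of them. Across all genes, 8.78% had every HP library below every NP library. Of the 9, 1 (Ciart) passed the adjusted threshold, and all 9 had an unadjusted p under 0.05. Their median log2 fold change was -0.95, with medians of -0.92, -1.05 and -1.17 in HP F1, F2 and M against the NP mean. Cry1, the tenth, missed the filter on low values, at 0.76, 0.48 and 0.68 FPKM on HP, against 0.91, 1.64 and 0.9 FPKM on NP. Among the period genes, whose proteins repress CLOCK and BMAL1, Per1 was at 5.91, 5.07 and 6.67 FPKM on HP, against 9.86, 12.7 and 14.1 FPKM on NP. Per2 was at 0.99, 1.1 and 1.08 FPKM on HP, against 2.69, 4.4 and 8.41 FPKM on NP, and NP M held the highest value of both. Per3 was at 1.65, 1.41 and 1.78 FPKM in HP F1, F2 and M, against 5.89, 3.59 and 9.84 FPKM in NP F2, KO7 and M, a log2 fold change of -1.42 ± 0.29 (adjusted p = 0.203). Per2 differed by -1.48 ± 0.36 (adjusted p = 0.296) and Per1 by -0.94 ± 0.17 (adjusted p = 0.152). The genes for the nuclear receptors REV-ERBα and REV-ERBβ, Nr1d1 and Nr1d2, differed by -0.83 ± 0.20 and -0.61 ± 0.22, and Nr1d1 was at 36.5, 27.2 and 29.5 FPKM on HP, against 71.3, 43.2 and 55.05 FPKM on NP. Bhlhe40, another transcriptional repressor, was at 14.2, 12.7 and 9.02 FPKM on HP, against 36.8, 24.5 and 22.6 FPKM on NP, a log2 fold change of -1.15 ± 0.21 (adjusted p = 0.157).

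The output factors lay on the same side. Besides Dbp, Tef was at 42.1, 29.96 and 41.5 FPKM in HP F1, F2 and M, against 85.1, 81.6 and 115 FPKM in NP F2, KO7 and M, and Hlf was at 13.3, 8.79 and 13.5 FPKM on HP, against 25.3, 18.6 and 23.8 FPKM on NP. The log2 fold changes were -1.29 ± 0.22 for Tef (adjusted p = 0.122) and -0.88 ± 0.20 for Hlf (adjusted p = 0.269). With the label block, Tef passed (adjusted p = 0.0417), and it passed in 2 of the 22 alternative settings in all. Usp2, a deubiquitinase gene under clock control, was at 24.3, 24.2 and 33.3 FPKM on HP, against 57.8, 82.4 and 60.97 FPKM on NP, a difference of -1.26 ± 0.22 (adjusted p = 0.118).

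Genes of the opposite clock phase lay higher. Arntl, which encodes BMAL1, was at 3.18, 2.0 and 1.82 FPKM in HP F1, F2 and M, against 0.58, 0.25 and 0.27 FPKM in NP F2, KO7 and M. Nfil3, which encodes a repressor that competes with DBP for D-boxes, was at 6.0, 4.25 and 4.29 FPKM in HP F1, F2 and M, against 1.06, 1.33 and 1.08 FPKM in NP F2, KO7 and M. Neither overlapped between the diets, and 3.66% of all genes had every HP library above every NP library. Nfil3 missed the threshold narrowly, with a log2 fold change of 1.43 ± 0.18 (adjusted p = 0.0587), and Arntl differed by 1.27 ± 0.22 (adjusted p = 0.118). Clock was at 5.03, 3.97 and 3.97 FPKM on HP, against 2.97, 2.1 and 3.22 FPKM on NP, without overlap. Npas2, which encodes a CLOCK relative, was at 1.22, 0.76 and 1.26 FPKM on HP, against 2.12, 0.13 and 0.55 FPKM on NP, with overlap. Rora, whose product activates Arntl, lay the other way, with a log2 fold change of -0.48 ± 0.17. Of the 6 genes listed as clock activators 4 lay above 0 and 2 below, none past the adjusted threshold, with 3 higher and 2 lower at an unadjusted p under 0.05. The lower count was 1 without HP F2, without NP KO7 or without NP M.

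**Figure D2:**
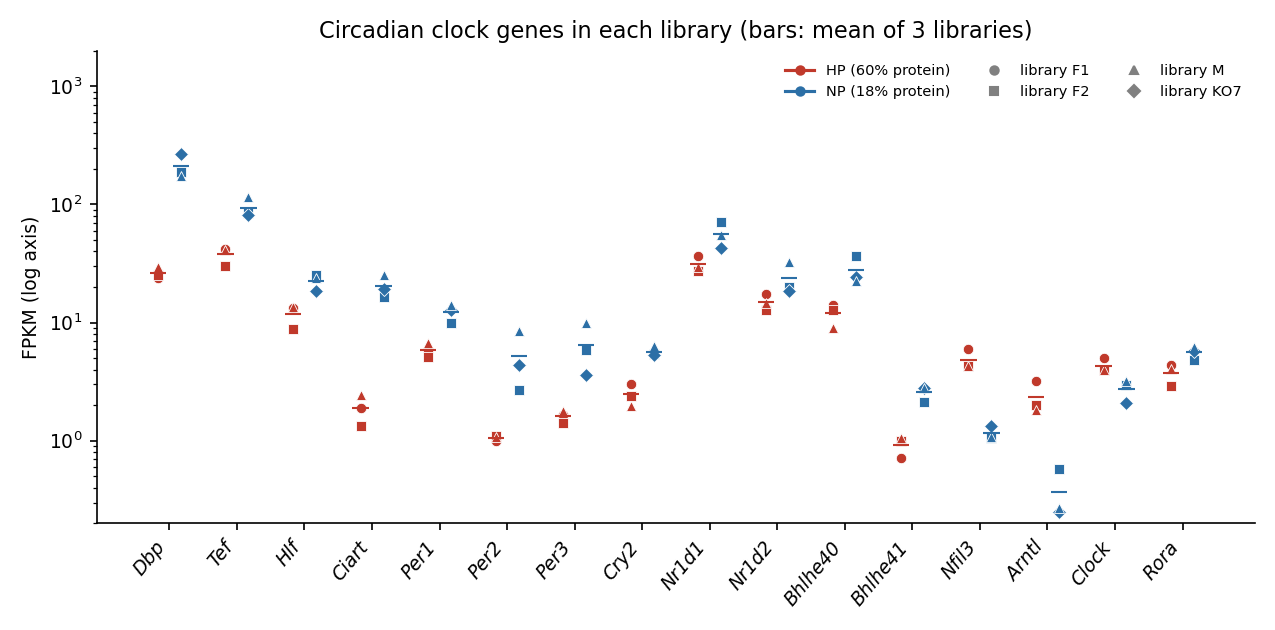
FPKM of clock genes on a log axis in each HP library (red, left within each gene) and each NP library (blue, right), 1 point per library with a bar at the mean of the 3 libraries. The repressors and the output factors Dbp, Tef and Hlf lie lower in all HP libraries, down to 23.9 to 29.4 FPKM for Dbp against 176 to 269 FPKM in NP libraries, and Arntl and Nfil3 lie higher.

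Promoters of the clock genes were searched for both clock motifs, because the genes that fell or lay lower are known targets of these factors. The windows were 250 bases before to 50 bases after the RefSeq start (GRCm38.p6), and 16 of the 19 clock genes had one. The E-box CACGTG, which reads the same on both strands, occurred in 5 of the 16, against 8.09% of 27025 genes with a window. The D-box TTATGTAA, or TTACATAA on the other strand, occurred in 1 of the 16, against 1.11% of all genes. The 5 with an E-box were Ciart, with 3 copies, Per1, Cry1, Tef and Bhlhe41, and the 1 with D-boxes was Per3, with 2 copies. Dbp had neither motif within its window, which says only that these letters are not in those bases. The promoters of Ciart, which fell, of Per1 and Tef among the E-box genes, and of the D-box gene Per3 are printed 5′ to 3′ on the gene's own strand, with the motif in capitals. The Ciart window is chr3:95882179-95882478 on the minus strand and its E-boxes begin 116, 58 and 44 bases before the start. The Per1 window is chr11:69098699-69098998 on the plus strand with its E-box 166 bases before the start. The Tef window is chr15:81802423-81802722 on the plus strand with its E-box 127 bases before the start. The Per3 window is chr4:151044616-151044915 on the minus strand with D-boxes 205 and 158 bases before the start.
Ciart: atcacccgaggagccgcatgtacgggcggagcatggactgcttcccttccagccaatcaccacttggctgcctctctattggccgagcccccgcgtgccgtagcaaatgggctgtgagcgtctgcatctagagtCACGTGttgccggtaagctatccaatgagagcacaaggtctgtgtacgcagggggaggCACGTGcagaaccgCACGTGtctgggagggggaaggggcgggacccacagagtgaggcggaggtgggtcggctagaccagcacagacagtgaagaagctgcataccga
Per1: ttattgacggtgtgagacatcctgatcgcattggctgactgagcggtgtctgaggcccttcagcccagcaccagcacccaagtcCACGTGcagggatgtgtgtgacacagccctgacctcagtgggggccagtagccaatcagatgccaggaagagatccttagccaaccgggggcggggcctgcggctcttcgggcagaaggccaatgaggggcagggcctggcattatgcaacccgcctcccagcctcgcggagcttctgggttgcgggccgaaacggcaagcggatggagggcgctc
Tef: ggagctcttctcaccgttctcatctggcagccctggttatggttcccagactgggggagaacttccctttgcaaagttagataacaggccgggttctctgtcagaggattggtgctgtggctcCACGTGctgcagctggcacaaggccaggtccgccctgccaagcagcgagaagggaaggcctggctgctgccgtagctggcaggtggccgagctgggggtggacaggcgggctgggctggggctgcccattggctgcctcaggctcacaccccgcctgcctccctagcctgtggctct
Per3: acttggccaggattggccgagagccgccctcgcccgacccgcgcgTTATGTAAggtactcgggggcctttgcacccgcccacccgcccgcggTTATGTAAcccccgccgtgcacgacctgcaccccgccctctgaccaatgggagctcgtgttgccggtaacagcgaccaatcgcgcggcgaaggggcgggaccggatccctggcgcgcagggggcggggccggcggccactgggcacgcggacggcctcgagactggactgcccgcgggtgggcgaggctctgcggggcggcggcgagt
The match of letters is a description of these sequences and not a measurement of binding.

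Transcripts of endocrine glands were among those with large upward differences. Pth, which encodes parathyroid hormone, was at 144, 124 and 79.8 FPKM in HP F1, F2 and M, against 13.2, 29.7 and 13.8 FPKM in NP F2, KO7 and M. Tg, which encodes thyroglobulin, was at 188, 211 and 235 FPKM in HP F1, F2 and M, against 92.6, 83.5 and 118 FPKM in NP F2, KO7 and M. Neither overlapped between the diets. Chga, made in neuroendocrine cells including those of the parathyroid, was at 18.5, 10.7 and 13.3 FPKM in HP F1, F2 and M, against 2.74, 2.48 and 2.6 FPKM in NP F2, KO7 and M. It rose by 2.04 on the log2 scale (SE 0.23, adjusted p = 0.0459), and its adjusted p was 0.0994 with the label block, 0.156 without HP F1, 0.119 without NP F2, 0.0847 without NP KO7 and 0.141 without NP M. Pth differed by 2.61 ± 0.33 (adjusted p = 0.0587, and 0.025 with the label block) and Tg by 1.11 ± 0.16 (adjusted p = 0.0989). Pth passed in 8 of the 22 alternative settings and Tg in 2. The LP libraries were also high, with Pth at 76.8 and 51.5 FPKM in LP F2 and M, Tg at 240.4 and 264 FPKM in LP F2 and M and Chga at 10.7 and 6.11 FPKM in LP F2 and M. Of 6 thyroid and parathyroid markers 4 passed the filter. Slc5a5, for the iodide carrier of the thyroid, overlapped between HP and NP, and the summed level was 319 to 338 FPKM in HP libraries and 107 to 135 FPKM in NP libraries. Gcm2, which encodes the defining parathyroid transcription factor, was at 0.02, 0.03 and 0.04 FPKM on HP, against 0.01, 0 and 0 FPKM on NP. Whether glandular tissue was carried into some libraries was not tested.

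Among genes of glucose formation Pck1 stood out, which encodes cytosolic phosphoenolpyruvate carboxykinase, the enzyme that commits oxaloacetate to glucose. Pck1 was at 2195, 1706 and 1329 FPKM in HP F1, F2 and M, against 843, 617 and 619 FPKM in NP F2, KO7 and M. The lowest HP library exceeded the highest NP library, and the log2 fold change was 1.32 ± 0.21 (adjusted p = 0.103, and 0.0342 with the sex letter as a covariate). Pck1 passed in 2 of the 22 alternative settings. LP libraries, at 669 and 749 FPKM in LP F2 and M, lay among the NP values. The rest of the pathway was mixed. G6pc, for the last step to glucose, was at 191, 182 and 143 FPKM on HP, against 176, 199 and 181 FPKM on NP, and Fbp1, the kidney's main fructose bisphosphatase gene, differed by -0.07 ± 0.17. Of 15 gluconeogenesis genes 6 lay above 0 and 9 below (median -0.07, 0.018 without HP M and 0.042 without NP KO7), none past the adjusted threshold. At an unadjusted p under 0.05, Pck1, Eno1 and Mdh1 were higher (1 gene without HP F1) and Fbp2, Slc37a4 and Pcx were lower. Slc37a4, the carrier of glucose 6-phosphate, differed by -0.44 ± 0.13, and Pcx, which encodes the enzyme that forms oxaloacetate from pyruvate, by -0.36 ± 0.14.

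Among genes of sugar uptake, 1 carrier stood out. Slc2a5, which encodes the fructose carrier GLUT5, was at 70.9, 58.2 and 31.5 FPKM in HP F1, F2 and M, against 224, 92.98 and 119 FPKM in NP F2, KO7 and M. All HP libraries were below all NP libraries, with a log2 fold change of -1.40 ± 0.36 (adjusted p = 0.33, and 0.00562 with the sex letter). Slc2a5 passed in 1 of the 22 alternative settings. Slc2a2, for the basolateral glucose carrier GLUT2, was at 85.3, 74.3 and 82 FPKM on HP, against 94.5, 129.9 and 147 FPKM on NP, and Glyctk, for glycerate kinase of the fructose route, was at 31.8, 23.1 and 27.1 FPKM on HP, against 42.5, 51.7 and 51.9 FPKM on NP. Of 16 genes for sugar uptake and fructose use, 11 lay below 0 and 5 above (31.2% above, against 40.9% of all genes), and 3 were lower at an unadjusted p under 0.05, or 6 with the label block and 5 without NP KO7. The main glucose carriers of the brush border did not follow, with 0.18 ± 0.15 for Slc5a2 and 0.37 ± 0.34 for Slc5a1.

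Lactate and pyruvate genes lay mostly above. Slc16a1, which encodes the lactate and pyruvate carrier MCT1, was at 10.1, 13.8 and 15.01 FPKM in HP F1, F2 and M, against 6.06, 5.01 and 6.41 FPKM in NP F2, KO7 and M, without overlap, a log2 fold change of 1.02 ± 0.19 (adjusted p = 0.164). Pdk4, which encodes a kinase that blocks entry of pyruvate into the citric acid cycle, was at 7.37, 6.58 and 22.9 FPKM in HP F1, F2 and M, against 4.0, 6.06 and 2.78 FPKM in NP F2, KO7 and M, also without overlap, a difference of 1.17 ± 0.41 (adjusted p = 0.481). Of 21 genes of glycolysis and lactate transport 16 lay above 0, with a median of 0.19 and medians of 0.36, 0.27 and -0.10 in HP F1, F2 and M, so HP M departed from the others. Higher at an unadjusted p under 0.05 were 4, or 2 without HP F1 or without NP M and 8 without HP M. Lower were 2, Pfkfb3 (-0.50 ± 0.22) and Pdk2 (-0.38 ± 0.16), or 1 without HP M, NP KO7 or NP M and 0 without HP F2, NP F2, LP F2 or LP M. Slc16a14, an orphan member of the same carrier family, was at 13.1, 6.36 and 7.51 FPKM on HP, against 1.69, 3.16 and 3.89 FPKM on NP, a difference of 1.34 ± 0.32 (adjusted p = 0.286).

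Genes of fat use lay mostly lower. Of 17 tested targets of PPARα, the nuclear receptor that switches on fat use in fasting, 14 lay below 0, with a median of -0.54 (-0.57 to -0.44 under the scalings). Above 0 lay 17.6%, against 40.9% of all genes. Of all genes, 5.92% were lower and 2.96% higher at an unadjusted p under 0.05 by limma. At an unadjusted p under 0.05, 5 were lower, among them Cyp4a10, Slc25a20, Cpt1a and Acaa1b, or 3 without HP F1, 10 without HP M and 9 with the label block, and 1, Pdk4, was higher, which it was not without NP M. Cyp4a10, a fatty acid hydroxylase gene with close paralogs, was at 104, 138 and 144 FPKM on HP, against 405, 166 and 249 FPKM on NP, a value that may be shared among them. Angptl4, a gene for a lipoprotein lipase inhibitor, had a difference of -1.50 ± 0.79 with overlap, at 8.72, 12.7 and 106 FPKM on HP, against 43.6, 113 and 62.2 FPKM on NP.

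Genes of mitochondrial fatty acid oxidation lay below 0 by less. Of 20 genes 16 lay below 0 with a median of -0.27 and medians of -0.33, -0.31 and -0.24 in HP F1, F2 and M. At an unadjusted p under 0.05 by limma, 6 were lower, against 5.92% of all genes, and none passed the adjusted threshold. The lower count was 4 to 8 on leaving out each library and 9 with the label block, and 1 gene was higher without HP M. Slc25a20, which encodes the carnitine and acylcarnitine carrier of mitochondria, was at 23.1, 27.9 and 34.7 FPKM on HP, against 43.1, 52.8 and 38.6 FPKM on NP, a difference of -0.64 ± 0.18. Eci1, for an isomerase of unsaturated fatty acids, was at 121, 155 and 170.2 FPKM on HP, against 252, 237 and 195 FPKM on NP, a difference of -0.62 ± 0.17. The trifunctional protein genes Hadha and Hadhb differed by -0.01 ± 0.16 and 0.03 ± 0.17. Cholesterol synthesis genes showed no such lean, with 13 of 22 above 0. Fdps, for an enzyme of sterol synthesis, was above without overlap, at 44.96, 42.8 and 28.8 FPKM on HP, against 22.1, 23.03 and 25.6 FPKM on NP, and Msmo1, for another, at 19.4, 16.7 and 12.1 FPKM on HP, against 8.68, 8.98 and 11.4 FPKM on NP. Higher at an unadjusted p under 0.05 were 3, or 1 without HP F1 or with the label block, and 5 without HP M.

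**Figure D3:**
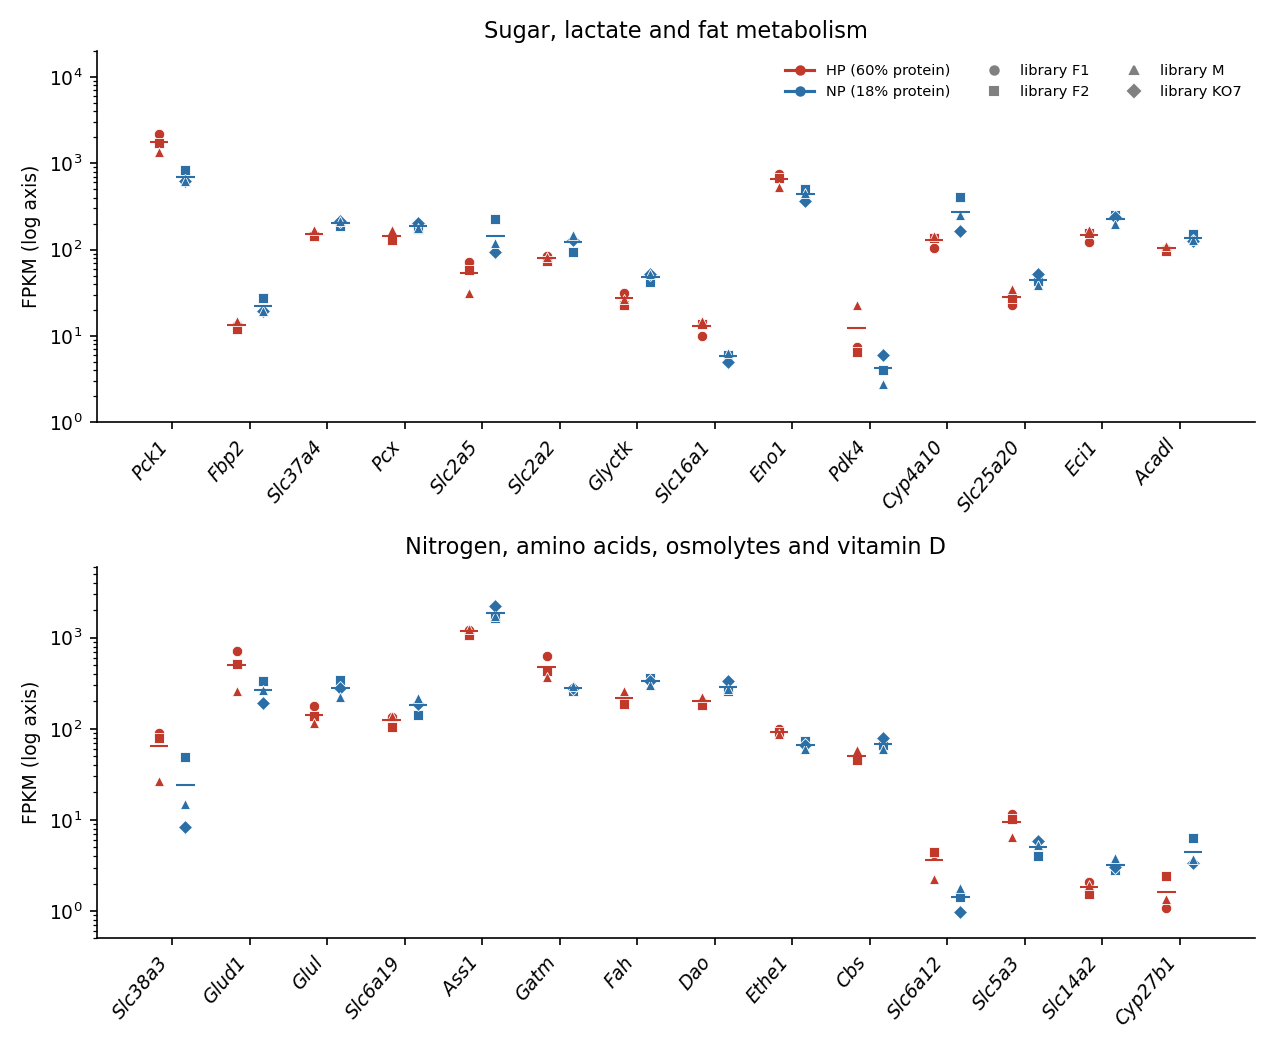
FPKM of metabolic genes on a log axis in each HP library (red, left within each gene) and each NP library (blue, right), 1 point per library with a bar at the mean of the 3 libraries. Pck1, Slc16a1 and Pdk4 lie higher in every HP library, and Slc2a5 and Glul lie lower in every HP library, while Slc38a3 overlaps.

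The ammonia route through glutamine was mixed. Slc38a3, which encodes the glutamine carrier SNAT3 and was chosen for follow-up by the study on these samples, was at 89.02, 79.4 and 26.9 FPKM in HP F1, F2 and M, against 48.9, 8.37 and 14.9 FPKM in NP F2, KO7 and M. NP F2 exceeded HP M, so the groups overlapped, and the log2 fold change was 1.59 ± 0.60 (adjusted p = 0.498). That value moved to 0.75 with the label block, 0.86 with the sex letter, 1.06 without NP KO7 and 2.27 without NP F2. Glud1, for glutamate dehydrogenase, was at 721, 512 and 257 FPKM on HP, against 337, 189.6 and 269 FPKM on NP, with overlap, a difference of 0.82 ± 0.35. Glul, for glutamine synthetase, which forms glutamine from glutamate and ammonia, was at 178, 137 and 115 FPKM in HP F1, F2 and M, against 339, 282 and 222 FPKM in NP F2, KO7 and M, with every HP library lower, a difference of -0.97 ± 0.21 (adjusted p = 0.225, and 0.0255 with the sex letter). Glul did not pass with the label block. Slc6a19, for the brush border carrier of neutral amino acids, differed by -0.51 ± 0.18. Of the 12 genes tested 3 were higher and 3 lower at an unadjusted p under 0.05. The higher count was 1 without NP M or with the label block and 0 without HP F1, HP F2 or NP KO7, and the lower count was 1 without HP F2 or NP M.

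Breakdown of amino acids held no adjusted call. Of 21 genes for branched-chain amino acid breakdown 6 lay above 0 (28.6%, against 40.9% of all genes, and 5 to 10 genes under the scalings), with a median of -0.12 (-0.15 to -0.01 under the scalings), and 0 reached even an unadjusted p under 0.05 by limma. Lower ones were 3 with the label block, 1 without HP F1 and 2 without NP M, and 2 were higher without HP M. Of 15 aromatic genes 12 lay below 0, with Fah, the last enzyme gene of tyrosine breakdown, at 203, 186 and 257 FPKM on HP, against 364, 332 and 302 FPKM on NP, and Qprt also lower at an unadjusted p under 0.05. In this list 7 were lower with the label block and 1 without HP F2 or HP M. Ass1, for the argininosuccinate synthetase of arginine formation, was at 1225, 1071 and 1233 FPKM in HP F1, F2 and M, against 1664, 2233 and 1746 FPKM in NP F2, KO7 and M, without overlap, a difference of -0.67 ± 0.16 (adjusted p = 0.286). Gatm, which encodes the first enzyme of creatine synthesis and uses that arginine, was at 635, 427 and 369 FPKM in HP F1, F2 and M, against 259.9, 277 and 297 FPKM in NP F2, KO7 and M, higher in every HP library, a difference of 0.74 ± 0.20 (adjusted p = 0.35). Of 19 genes for sulfur amino acids and sulfate 6 lay above 0 (31.6%), and 1, Ethe1, was higher and 4 lower at an unadjusted p under 0.05, with 2 lower without HP F1 and 0 without HP F2. Of the lower ones, Cbs, which starts the conversion of homocysteine to cysteine, differed by -0.46 ± 0.15, and the sulfate carrier Slc26a1 by -0.49 ± 0.16. The 16 tested ATF4 targets, which mark amino acid shortage, had a median of 0.08 (-0.007 without HP F1 and -0.002 without NP F2), with 0 at an unadjusted p under 0.05 by limma, or 1 as higher without HP M, NP KO7, LP F2 or LP M or with the label block. The 20 aminoacyl-tRNA synthetase genes had a median of -0.10.

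Genes for osmolytes and water handling were mixed. Slc6a12, for the betaine carrier BGT1, was at 4.2, 4.4 and 2.22 FPKM in HP F1, F2 and M, against 1.44, 0.97 and 1.81 FPKM in NP F2, KO7 and M. Slc5a3, for the inositol carrier, was at 11.5, 10.3 and 6.43 FPKM in HP F1, F2 and M, against 4.0, 5.93 and 5.33 FPKM in NP F2, KO7 and M. Both carriers bring in osmolytes that protect cells from hypertonic surroundings, and both lay higher in every HP library, by 0.91 ± 0.24 and 0.75 ± 0.22 (adjusted p = 0.334 and 0.398). Slc14a2, for the urea carriers of the collecting duct and thin limb, was at 2.08, 1.54 and 1.94 FPKM on HP, against 2.81, 3.05 and 3.83 FPKM on NP, lower in every HP library, a difference of -0.57 ± 0.18. Aqp1, the water channel gene of the proximal tubule and descending limb, differed by -0.38 ± 0.13, and Aqp2, the vasopressin-regulated channel gene, by -0.30 ± 0.23 with overlap. Nfat5, which encodes the tonicity-responsive factor, differed by -0.12 ± 0.22. Of the 13 genes 10 lay below 0 and 23.1% above, against 40.9% of all genes above. At an unadjusted p under 0.05 by limma, 2 were higher and 2 lower, against 2.96% and 5.92% of all genes. Lower ones were 5 with the label block and 1 without HP F2.

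Cyp27b1, which encodes the enzyme that makes active vitamin D, was at 1.07, 2.44 and 1.35 FPKM in HP F1, F2 and M, against 6.4, 3.33 and 3.69 FPKM in NP F2, KO7 and M, without overlap. Its log2 fold change was -1.06 ± 0.26 (adjusted p = 0.305). Cyp24a1, for the enzyme that degrades active vitamin D, was at 12.2, 16.3 and 49.6 FPKM on HP, against 45.8, 22.4 and 24.3 FPKM on NP, with overlap. The phosphate carriers Slc34a1 and Slc34a3 differed by -0.23 ± 0.20 and 0.22 ± 0.21, and Pth1r, for the parathyroid hormone receptor, by 0.15 ± 0.13. In the salt transport list 12 of 22 genes lay above 0, and Stk39, for the kinase SPAK that activates sodium chloride cotransporters, was above without overlap at 11.5, 10.2 and 6.75 FPKM on HP, against 5.18, 6.66 and 5.99 FPKM on NP. Sgk1, for an aldosterone- and glucocorticoid-induced kinase, was at 43, 26.7 and 25.1 FPKM on HP, against 21.4, 23.2 and 15.4 FPKM on NP, higher in every HP library. Tsc22d3, which encodes the glucocorticoid-induced GILZ, was lower in every HP library at 16.99, 13.3 and 17.6 FPKM on HP, against 19.4, 54.99 and 29.6 FPKM on NP.

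Carriers of drugs and organic ions lay mostly below, with 18 of 23 under 0 and a median of -0.28, but medians of -0.46 in both HP F1 and HP F2 and near 0 in HP M. Lower at an unadjusted p under 0.05 were 2, or 9 without HP M, 5 with the label block, 1 without NP KO7, LP F2 or LP M, and 0 without HP F1, HP F2 or NP M. Several of these carriers differ between male and female mouse kidneys, and 10 of 10 genes known to be higher in male mouse kidney lay below 0, with medians of -2.45, -2.05 and 0.97 in HP F1, F2 and M. The summed level of that male-biased list was 3121 to 34590 FPKM in HP libraries and 7794 to 35879 FPKM in NP libraries. The part of sex in the lean of the carriers was not tested.

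Of 22 genes of polycystic disease and cilia 4 lay above 0 (18.2%, against 40.9% of all genes), with a median of -0.14. It was -0.23 without NP F2 or with the label block, -0.09 without HP F2 and -0.06 without NP M. Glis2, mutated in nephronophthisis, was at 39.9, 26.3 and 31.9 FPKM on HP, against 49.9, 56.2 and 45.5 FPKM on NP. Glis2 and Tsc2 were among 3 genes lower at an unadjusted p under 0.05, against 5.92% of all genes, or 6 with the label block and 2 without HP F1, HP F2 or NP KO7. Pkd2, the partner of Pkd1, differed by -0.28 ± 0.19. Among 20 tubule transcription factors 7 lay above 0 (35.0%, against 40.9% of all genes). Hnf4a, for a defining factor of the proximal tubule, was at 119, 97.05 and 122 FPKM in HP F1, F2 and M, against 185, 188 and 176 FPKM in NP F2, KO7 and M, without overlap, a difference of -0.70 ± 0.15 (adjusted p = 0.235). Lhx1 and Irx3 were lower too, with differences of -0.63 ± 0.19 and -0.60 ± 0.21. These 3 were among 4 lower genes at an unadjusted p under 0.05, or 10 with the label block and 7 without HP F1.

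Growth and injury genes gave no single direction. Ccnd1, which encodes cyclin D1 for entry into the cell cycle, was at 42.9, 33.7 and 54.01 FPKM in HP F1, F2 and M, against 62.9, 105 and 88.01 FPKM in NP F2, KO7 and M, lower in every HP library, a difference of -0.95 ± 0.22 (adjusted p = 0.281). Cdk1, for the mitotic kinase, was at 3.7, 4.41 and 5.72 FPKM on HP, against 2.36, 2.77 and 2.61 FPKM on NP, and Mcm6, of the replication helicase, at 5.08, 3.61 and 5.69 FPKM on HP, against 6.12, 8.7 and 8.4 FPKM on NP. Of 17 proliferation genes 12 lay above 0, with a median of 0.09, 1 higher and 2 lower at an unadjusted p under 0.05. The higher count was 0 and the lower 1 without HP F2, NP KO7 or NP M. Havcr1, the gene of the injury marker KIM-1, was at 1.5, 1.41 and 0.4 FPKM on HP, against 0.21, 0.66 and 0.26 FPKM on NP, with overlap. Of 15 injury genes 12 lay above 0 with a median of 0.33 and medians of 0.38, 0.68 and -0.04 in HP F1, F2 and M. Cd24a and Tgfb1 lay higher in every HP library. With Clu they make 3 genes higher at an unadjusted p under 0.05, or 1 without HP F2 or NP F2 and 6 without HP M or NP KO7. Krt8, a keratin gene, was lower at an unadjusted p under 0.05, with overlap and a difference of -0.39 ± 0.15, which it was not with the label block or without HP F1, HP F2, NP F2 or NP KO7. Ppp1r1b, which encodes DARPP-32, a phosphatase inhibitor under dopamine and cAMP control that the study also followed up, was at 40.03, 45.9 and 21.6 FPKM in HP F1, F2 and M, against 13.6, 23.6 and 14.5 FPKM in NP F2, KO7 and M. HP M lay below NP KO7, and the difference was 0.99 ± 0.29 (adjusted p = 0.398). Crem, a cAMP-responsive gene, was at 11.3, 10.8 and 10.1 FPKM on HP, against 7.77, 6.54 and 6.29 FPKM on NP, higher in every HP library by 0.58 ± 0.15.

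Of signals that draw immune cells, Mdk, which encodes the growth factor midkine, was lower. It was at 17.7, 18.9 and 29.04 FPKM in HP F1, F2 and M, against 41.8, 86.02 and 64.8 FPKM in NP F2, KO7 and M, a log2 fold change of -1.49 ± 0.27 (adjusted p = 0.152), and the LP libraries, at 80.1 and 62.3 FPKM in LP F2 and M, lay with NP. Rarres2, which encodes the chemoattractant chemerin, was at 70.7, 96.2 and 72.02 FPKM in HP F1, F2 and M, against 27.8, 32.4 and 25.3 FPKM in NP F2, KO7 and M. Every HP library was more than 2 times the highest NP library, and the difference was 1.44 ± 0.19 (adjusted p = 0.0587, and 0.0215 with the sex letter). Rarres2 passed in 5 of the 22 alternative settings. Csf1, a macrophage growth factor gene, differed by 0.18 ± 0.27, and Ccl2 missed the filter at 0.58, 0.6 and 0.55 FPKM on HP, against 0.1, 0.65 and 0.51 FPKM on NP. Sucnr1, for the succinate receptor, was at 6.47, 8.2 and 21.4 FPKM on HP, against 22.2, 24.1 and 44.9 FPKM on NP, a difference of -1.37 ± 0.43 (adjusted p = 0.413), with NP F2 and HP M nearly level.

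Among the lower genes named by size or p were 2 of retinoid metabolism. Retsat, for retinol saturase, was at 102, 111 and 124 FPKM in HP F1, F2 and M, against 197, 206 and 203 FPKM in NP F2, KO7 and M, a difference of -0.85 ± 0.12 (adjusted p = 0.0989). Aldh1a1, for an enzyme that makes retinoic acid, was at 8.11, 8.95 and 8.59 FPKM on HP, against 24.9, 16.2 and 19.7 FPKM on NP, a difference of -1.14 ± 0.18 (adjusted p = 0.103). Neither gene overlapped between the diets. Cyp2a5, a xenobiotic-metabolizing cytochrome P450, was at 49.1, 54.2 and 160.4 FPKM on HP, against 381, 326 and 391 FPKM on NP, a difference of -2.26 ± 0.39 (adjusted p = 0.118); its close paralog Cyp2a4 makes the split of reads between them uncertain. Nat8f3, Nat8f6 and Nat8f7, neighbouring N-acetyltransferase-family genes of like sequence whose separate levels are therefore also uncertain, differed by -0.92 ± 0.14, -1.66 ± 0.44 and -0.88 ± 0.15 (adjusted p = 0.103, 0.35 and 0.118). Nqo1, a target of the oxidative stress factor NRF2, was at 33.5, 32.4 and 25.1 FPKM on HP, against 72.9, 46.9 and 38.01 FPKM on NP, and 9 of 23 glutathione and NRF2 genes lay above 0 (39.1%, against 40.9% of all genes), with a median of -0.11 that was 0.006 without HP M and 0.039 without NP F2.

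Several further genes stood out by size or by p. Among those lower on HP, Tln2, for the cytoskeletal linker talin-2, was at 32.5, 26.8 and 24.4 FPKM in HP F1, F2 and M, against 57.1, 63.1 and 59.3 FPKM in NP F2, KO7 and M, a difference of -1.08 ± 0.14 (adjusted p = 0.0587). LP libraries of Tln2, at 30.1 and 34.3 FPKM in LP F2 and M, lay near the HP ones. Rbm3, for a cold-inducible RNA-binding protein, was at 64.5, 72.5 and 70.7 FPKM on HP, against 109, 131 and 151 FPKM on NP, a difference of -0.89 ± 0.14 (adjusted p = 0.103), and its relative Cirbp differed by -0.55 ± 0.26. Of the heat shock genes beside them, none had an unadjusted p under 0.05. Coq10b, of coenzyme Q function, was at 11.5, 10.7 and 10.5 FPKM on HP, against 21, 27.3 and 23.4 FPKM on NP, a difference of -1.06 ± 0.16 (adjusted p = 0.103). Utp20, of ribosome assembly, differed by -1.005 ± 0.17 (adjusted p = 0.118). Tnfrsf21, for death receptor 6, was at 43.4, 34.9 and 43.2 FPKM on HP, against 68.6, 83.2 and 76.8 FPKM on NP, a difference of -0.90 ± 0.14 (adjusted p = 0.103). Gjb2, for connexin 26, differed by -0.89 ± 0.15 (adjusted p = 0.118). None of these 4 overlapped between the diets. Angptl7, for a secreted angiopoietin-like protein, was at 5.24, 4.81 and 4.14 FPKM on HP, against 14.7, 64.1 and 18.2 FPKM on NP, with KO7 far above the other NP libraries, a difference of -2.24 ± 0.58 (adjusted p = 0.334).

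Among those higher on HP, Wsb1, for a substrate adaptor of a ubiquitin ligase, was at 74.6, 51.8 and 33.3 FPKM in HP F1, F2 and M, against 11.3, 7.12 and 15.7 FPKM in NP F2, KO7 and M. The difference was 2.12 ± 0.32 (adjusted p = 0.103, and 0.0437 with the sex letter), with LP at 24.97 and 26.1 FPKM in LP F2 and M. Wsb1 passed in 3 of the 22 alternative settings. Cox6a2, the heart and muscle form of a cytochrome c oxidase subunit, was at 15.4, 20.6 and 15.2 FPKM on HP, against 2.39, 7.33 and 4.5 FPKM on NP, a difference of 1.74 ± 0.29 (adjusted p = 0.118). Tmem52, a membrane protein gene, was at 10.4, 8.17 and 6.65 FPKM on HP, against 0.66, 2.81 and 1.49 FPKM on NP, a difference of 1.89 ± 0.30 (adjusted p = 0.103). Neither overlapped between the diets. Slc45a3, of a sugar carrier family, was at 13.4, 11.8 and 9.56 FPKM on HP, against 5.45, 4.94 and 5.28 FPKM on NP, a difference of 1.007 ± 0.15 (adjusted p = 0.103). Nccrp1 was at 67.6, 70.7 and 31.9 FPKM in HP F1, F2 and M, against 20.1, 19.4 and 12.3 FPKM in NP F2, KO7 and M, a difference of 1.60 ± 0.31 (adjusted p = 0.164). Defb42, a defensin gene, was at 4.61, 9.41 and 1.92 FPKM on HP, against 1.15, 0.83 and 0.7 FPKM on NP, a difference of 1.56 ± 0.39 (adjusted p = 0.308). In both, HP M lay nearest to the NP libraries. H2-Q10, a class I gene with close relatives and so of uncertain level, was at 8.26, 4.96 and 1.84 FPKM on HP, against 0.46, 0.53 and 0.75 FPKM on NP, a difference of 1.77 ± 0.37 (adjusted p = 0.214).

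Genes of protein synthesis and respiration lay close to 0. Of 81 cytosolic ribosomal protein genes 79 lay below 0 and 2.5% above, against 40.9% of all genes above. Their median was -0.15, and 4 were lower at an unadjusted p under 0.05 by limma, against 5.92% of all genes. That count was 1 without HP F1, NP F2, LP F2 or LP M, 0 without HP M, 2 without NP KO7 and 10 without NP M. The HP library medians were -0.17, 0.04 and -0.32, and the number above 0 was 0 to 16 under the scalings, with medians of -0.19 to -0.08. Of 76 nuclear genes of the respiratory chain 69 lay above 0, with a median of 0.17, and 0 passed an unadjusted p under 0.05 by limma, or 25 with the label block, 14 without NP KO7 and 5 without HP M. That median was -0.004 without NP M and 0.055 without HP F2, so its direction rests on NP M. The library medians were 0.23, 0.38 and -0.12. All 13 mitochondrially encoded subunits lay above 0 with medians of -0.08, 0.29 and 0.40. In both lists 1 HP library lay on the other side of the NP mean, HP M for the nuclear and HP F1 for the mitochondrial genes.

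Of the cells other than tubule that a kidney suspension can hold, markers of macrophages, endothelium, and fibroblasts and pericytes lay above 0, and those of podocytes and lymphocytes lay on both sides of 0. Of 7 podocyte markers 3 lay above 0 and 4 below (median -0.11, 0.043 without HP M and 0.12 without NP KO7), with 0 at an unadjusted p under 0.05 by limma, or 2 lower without HP F1 or with the label block and 1 higher without HP M. Of 4 tested lymphocyte markers 2 lay on each side, with 0 at an unadjusted p under 0.05 by limma. All 6 tested fibroblast and pericyte markers lay above 0 (median 0.38), with 2 higher at an unadjusted p under 0.05, or 3 without HP M, 1 with the label block and 0 without HP F1, HP F2 or NP F2. All 17 macrophage markers lay above 0 with a median of 0.50 and library medians of 0.28, 0.71 and 0.61. At an unadjusted p under 0.05 by limma, 7 were higher, against 2.96% of all genes, and none passed the adjusted threshold. That count was 13 with the label block and 4 without HP M or NP F2. Cd74, the class II invariant chain gene, was at 97.1, 103 and 66.4 FPKM in HP F1, F2 and M, against 38.3, 46.3 and 45.2 FPKM in NP F2, KO7 and M. Lyz2, for lysozyme, was at 26.8, 27.4 and 31.9 FPKM on HP, against 14.3, 20.1 and 19.4 FPKM on NP. Adgre1, the gene of the sort marker F4/80, was at 1.4, 1.36 and 1.22 FPKM on HP, against 0.46, 1.26 and 0.81 FPKM on NP, and Itgam, that of CD11b, was at 1.47, 1.35 and 1.6 FPKM on HP, against 0.59, 1.28 and 1.05 FPKM on NP. The summed macrophage level was 371 to 473 FPKM in HP libraries and 174 to 293 FPKM in NP libraries, so macrophage transcripts were present in all of them. Fewer cells of a type and less RNA per cell cannot be told apart in such bulk libraries, and the part of macrophages in the differences above was not tested.

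All 12 endothelial markers lay above 0 as well, with a median of 0.56 but medians of 0.94, 0.74 and 0.01 in HP F1, F2 and M. At an unadjusted p under 0.05 by limma, 6 were higher, against 2.96% of all genes. That count was 3 without HP F1, HP F2 or NP F2 and 12 without HP M. Thick ascending limb markers behaved alike, 12 of 13 above 0 with medians of 0.91, 0.81 and -0.12, 3 higher at an unadjusted p under 0.05, or 5 with the label block, 8 without NP KO7 and 11 without HP M. Tmem207, a gene of that segment, was at 12.3, 14.3 and 6.37 FPKM in HP F1, F2 and M, against 3.16, 3.74 and 3.52 FPKM in NP F2, KO7 and M, a difference of 1.36 ± 0.27 (adjusted p = 0.186). HP M thus departed from the other HP libraries and lay near NP in both lists. HP M was also the HP library with high Y-linked Eif2s3y and low Xist. The part of sex in these lists, and in others where HP M departed, was not tested. Of 20 proximal tubule markers 14 lay below 0, with a median of -0.38. At an unadjusted p under 0.05 by limma, 4 were lower, against 5.92% of all genes, or 8 without HP M or with the label block. Slc27a2, which encodes a fatty acid carrier, was among these 4, at 669, 647 and 1107 FPKM on HP, against 1159, 1234 and 1536 FPKM on NP. Principal cell markers had a median of -0.23, with library medians of 0.16, -0.04 and -0.59, and 0.022 without HP M. Intercalated cell markers had a median of 0.09, with library medians of 0.49, 0.17 and -0.26, and -0.12 without HP F1 or -0.091 without NP F2. The summed level was 1198 to 2498 FPKM in HP libraries and 1023 to 2109.6 FPKM in NP libraries for the thick ascending limb, 107 to 213 FPKM in HP libraries and 89.3 to 115 FPKM in NP libraries for endothelium and 16443 to 44605 FPKM in HP libraries and 22237 to 47559 FPKM in NP libraries for the proximal tubule.

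Haemoglobin transcripts of red cells lay higher. Hba-a2, an adult α-globin gene with a near-identical copy and so uncertain in its split, was at 85.97, 144 and 67.05 FPKM in HP F1, F2 and M, against 29.9, 60.1 and 24.5 FPKM in NP F2, KO7 and M, a log2 fold change of 1.39 ± 0.35 (adjusted p = 0.314). The haemoglobin sum was 244, 424 and 226 FPKM in HP F1, F2 and M, against 112, 204 and 89.8 FPKM in NP F2, KO7 and M. Every HP sum exceeded every NP sum. Of the 8 tested erythroid markers 6 lay above 0. Of these, 5, the globin genes and Slc4a1, were higher at an unadjusted p under 0.05 by limma, against 2.96% of all genes. The other 2 lay below 0, among them Bpgm, for an enzyme of red cell glycolysis, with a difference of -0.19 ± 0.12 and every HP library under every NP library. Alas2, the erythroid gene of haem synthesis, differed by 0.05 ± 0.31.

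**Figure D4:**
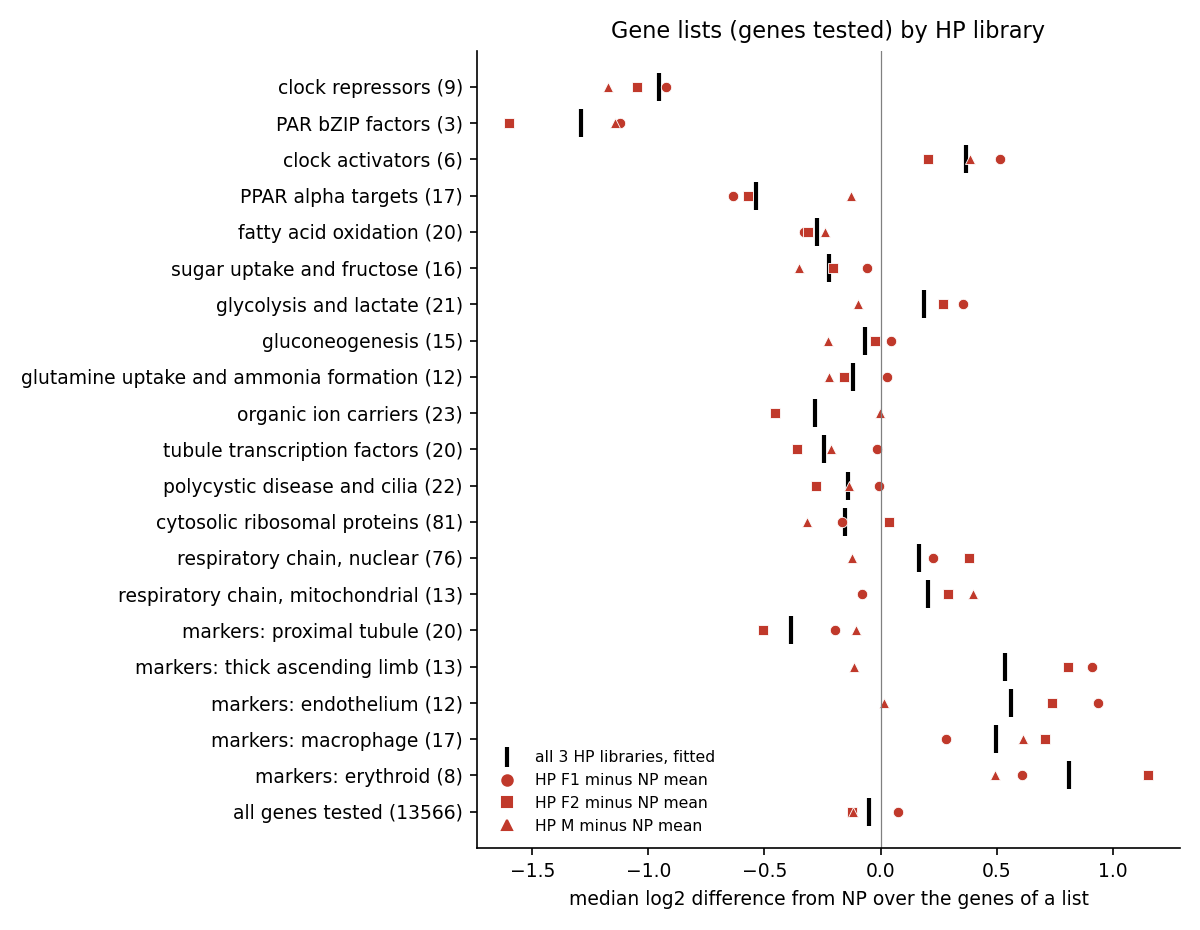
Medians of log2 difference from the NP mean over the tested members of each gene list, 1 red point per HP library, with a black bar at the median of the fitted log2 fold changes and the number of tested genes in parentheses. Clock repressors and PAR bZIP factors (Dbp, Tef and Hlf) lie below 0 in all 3 HP libraries, while endothelial and thick ascending limb markers lie above 0 in HP F1 and F2 and near 0 in HP M.

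**Figure D5:**
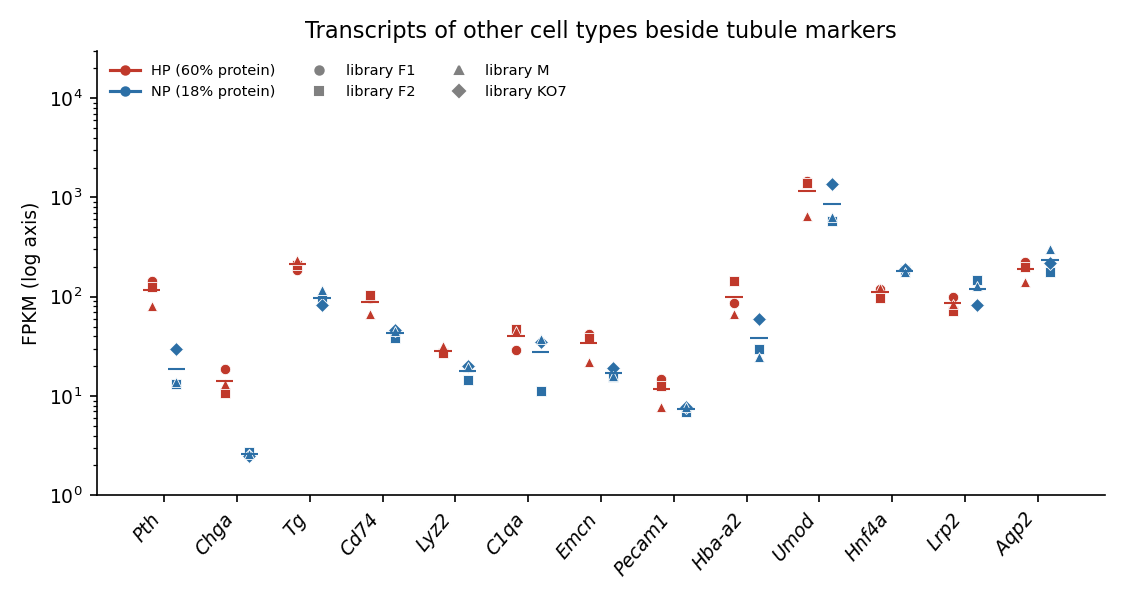
FPKM on a log axis of transcripts of glands (Pth, Chga, Tg), macrophages (Cd74, Lyz2, C1qa), endothelium (Emcn, Pecam1) and red cells (Hba-a2), beside the tubule genes Umod, Hnf4a, Lrp2 and Aqp2, in each HP library (red, left) and each NP library (blue, right), with a bar at the mean of the 3 libraries. Chga is at 10.7 to 18.5 FPKM in HP libraries and 2.48 to 2.74 FPKM in NP libraries, while Umod and Aqp2 overlap.

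More genes passed when sex, as lettered in the titles, was a covariate. In that setting, which leaves out KO7, 25 of the 42 named genes passed the adjusted threshold, against 3 without it and 4 with the label block. Those that passed included the clock genes Nfil3 (adjusted p = 0.027), Per3 (0.0182) and Tef (0.0215), the glandular Pth (0.000367) and Tg (0.0114), and Cyp2a5 (0.0248) and Nccrp1 (0.017). Over all genes, leaving out KO7 with no sex term gave 1 higher and 3 lower genes past the adjusted threshold, against 15 and 29 with the term.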

How the data were processed

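The authors sequenced mRNA of sorted cells; per the labels, reads were trimmed with Trim Galore 0.6.7 and quantified with RSEM 1.3.3 (submitters' processing notes) on GRCm39, and 1 table of FPKM per gene and library was deposited. The labels and the methods name different library kits, and use of strand in counting is not given in the sources used here, so overlapping genes may share reads. FPKM are not counts: depth was estimated from the step between low values (82.5% to 88.0% of the values used were within 0.15 of whole fragments, against 30.0% for an even spread).

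Genes reaching 1 FPKM in 2 or more of the 8 libraries were compared on log2(FPKM + 1) with limma 3.58.1 (R 4.3.3, trend), 1 mean per diet over all 8 libraries, HP minus NP, adjusted over 13566 genes (Benjamini-Hochberg, threshold 0.05, 5 residual and 4.11 prior degrees of freedom). Fold changes are on that scale, with SE, and understate changes of low genes. Libraries are pools of mice, so p-values measure the spread between pools. The test was tested on simulated data drawn independently for each library. Shared deviations of same-label libraries were not part of that simulation.

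Comparison, gene lists and tests were chosen with earlier results of these data known. Genes named are those past the adjusted threshold; in each direction the 12 protein-coding genes with the largest fold change among those with an unadjusted p under 0.05, a mean of at least 5 FPKM and no overlap; the 12 with the smallest p; the study's follow-up genes Pck1, Slc38a3 and Ppp1r1b; and of described lists, members with the smallest p or a key step. Some items are not reported here. Symbols were matched to 52147 of 53700 identifiers. Alternatives covered pseudocount, filter, scaling, libraries in the fit, trend, array weights, label block, sex letter and leaving out each library. The label pairing rests on correlated deviations of same-label libraries (0.145 to 0.346 over 6 pairs, against -0.381 to 0.252 between different labels). The deviations of LP F2 and LP M from their mean mirror each other, so the pairs with LP are not independent. Among the libraries in that fit, the labels F2 and M are the same split as the sex letter.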

Additional observations from a re-analysis of the deposited data

Results flagged for a closer look

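Kap, which encodes an androgen-regulated protein of the mouse proximal tubule, differed in opposite directions between the pairs of libraries that share a label. Kap was at 2545, 3703 and 31207 FPKM in HP F1, F2 and M, against 7002, 32394 and 17833 FPKM in NP F2, KO7 and M. The log2 difference of HP minus NP was -0.92 between the F2 libraries and 0.81 between the M libraries. The difference between these pairs was not tested, since each rests on 1 library per diet.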

How the results depend on the processing

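The number of calls varied between settings. The 172 genes followed were the named genes, list members with an unadjusted p under 0.05 by limma, and other genes picked for the text. Many were thus chosen for a difference in these same libraries, so few could be expected to change sign. Of their 3762 values under the alternatives, 3681 kept their direction and their side of the adjusted threshold, 71 passed it, 10 lost it and 0 changed sign. Some medians of whole lists did change sign. Without HP F1, that of cholesterol synthesis went from 0.07 to -0.04 and that of salt transport from 0.06 to -0.14. The 3 genes past the threshold became 5 with a pseudocount of 0.1, 1 with no filter on low values (which tests 32424 genes), 6 with a minimum of 5 FPKM in 3 libraries (under which lymphocyte markers gave no median), 6 with median-of-ratios scaling, 6 with quantile normalization, 5 after rescaling without haemoglobin and mitochondrial genes, 12 with array weights, 8 with the label block (4 from the same libraries without it) and 44 with the sex letter and without KO7; leaving out each library gave 1 to 38. The 402 higher genes at an unadjusted p under 0.05 became 830 with no filter, 224 with the stricter filter, 663 with median-of-ratios scaling, 711 with quantile normalization, 697 with array weights and 746 with the sex letter, and 206 to 758 on leaving out a library. The 803 lower genes became 1304 with array weights, 2196 with the label block and 1347 from the libraries F2 and M without it, and 359 to 938 on leaving out a library. Why single libraries move these counts was not tested. Ciart lost its call with no filter (adjusted p = 0.153), with F2 and M only (0.235) and without HP F1 (0.0989). Chga lost its call with no filter (0.331), the label block (0.0994), F2 and M only (0.299), and without HP F1, NP F2, NP KO7 or NP M (0.0847 to 0.156). The label block changed no call beyond those named and Mettl7a2, Pgk1-rs7, Gm5537 and Gm22818, which passed under it and were noted after their values were seen. Depth limits genes near 1 FPKM, such as Per2 and Arntl.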
